A study of Mus musculus with 14 samples.

Results

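The cultures described here were mouse tail fibroblasts reprogrammed for 3 weeks by forced expression of cMyc, Klf4, Oct4 and Sox2, the transcription factors that turn a body cell into a pluripotent one. One culture was labelled wildtype and one AID-null. Of the 14 libraries of the series, 4 came from these 2 cultures. Each culture gave 1 RNA-seq library and 1 reduced representation bisulfite (RRBS) library, which reads cytosine methylation beside restriction enzyme sites and so favours CpG-rich DNA. They were chosen by their labels, and genes and sites on the autosomes were compared. The other libraries came from untreated fibroblasts of each genotype (1 RNA and 1 RRBS library each) and from clones picked at 2 weeks and measured by RRBS after 3 weeks (3 per genotype). The AID-null genotype was shared by all the libraries on that side, and the labels used here do not describe the allele. With 1 library per side and assay, the differences between the 3-week cultures have no replicate check and carry no p-value.

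AID, activation-induced deaminase, is an enzyme known for changing cytosine to uracil in antibody genes of B cells. Repair of a deaminated methylcytosine is one route by which DNA methylation could be removed. In reprogramming, fibroblast genes are shut, an epithelial and then a pluripotent programme is opened, and the methylation pattern of the fibroblast is replaced. A bulk culture at this stage is a mixture, so for every gene below fewer cells of a type and less RNA per cell cannot be told apart.

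The AID-null side is named by its label throughout. RNA is given as FPKM (fragments per kilobase of transcript, scaled to library size). The libraries differed in sex-linked sequence. Ddx3y, a Y-linked helicase gene, was listed at 0 for the wildtype and at 135 FPKM for the AID-null culture, and the RRBS libraries covered 27 and 527 positions on Y, so genotype label and presence of Y cannot be told apart. The wildtype RRBS library had 1921771 autosomal positions at a median coverage of 82, and the AID-null library 1783638 at a median coverage of 118. The RNA read depth is unknown because only FPKM was given.

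Among 14512 autosomal genes with at least 1 FPKM in either culture, 1423 (9.81%) were higher by 2-fold or more and 1577 (10.9%) lower by as much in the AID-null library, on the log2(FPKM + 1) scale that all expression differences here use. A further 79.3% lay between. The median gene differed by −0.17, a shift that upper-quartile scaling moved to −0.01. The split of calls moved with it, from 47.4% higher to 61.0% higher (1770 against 1131). Large differences leaned upward at the deposited scale: 380 genes were 4-fold or more higher and 227 lower by as much, and for differences of at least 4 on the log2 scale the numbers were 47 and 15. Pairs of values below give the wildtype library first. Lists of genes are read against −0.17 and against the shares of 9.81% and 10.9%. Counts after upper-quartile scaling are read against 1770 higher and 1131 lower of 14496 genes and a median of −0.01. Of 1336 compared genes listed at 0 in both fibroblast libraries, 15.2% were higher and 31.1% lower. These are the nearer shares for lists mostly silent in fibroblasts.

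The 10 autosomal genes with the largest positive difference are given first. Rarres2, which encodes the chemoattractant chemerin, stood at 1.91 FPKM for the wildtype and 923 for the AID-null culture, against 45.2 and 52.6 in the fibroblasts. Crabp1, a retinoic acid binding protein, stood at 53.6 and 2489 FPKM, against 24.3 and 56.4 in fibroblasts. In both genes the AID-null culture lay far above either fibroblast library. Lrrc17, Cilp, Fxyd1 and the stromal surface gene Cd248 stood at 0.28, 18.7, 0 and 2.92 FPKM for the wildtype and at 77.1, 969, 45.1 and 166 FPKM for the AID-null culture, and each was below the fibroblast level of its own genotype. Thbs4, Tyrobp, Car9 and Ms4a7 complete the 10. At the other end were the cornified envelope genes Crct1, at 142 and 3.73 FPKM, and Lce1g, at 27.2 FPKM and listed at 0, and the steroid-metabolising enzyme genes Hsd3b6 (30.6 FPKM and listed at 0) and Akr1c18 (184 and 5.62 FPKM). Serpinb9g, Krt6a, Krt6b, the pseudogene Atp6v0c-ps2 and the short RNA genes Mir5117 and Snora78 were also among the 10 lowest, and FPKM of short or copied genes is uncertain.

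Genes of the low-oxygen response were higher in the AID-null culture. When oxygen is short, hypoxia-inducible factors are stabilised as proteins and switch on genes for acid handling, vessel growth, mitophagy and glycolysis. Of 14 genes on the list 9 were at least 2-fold higher and 0 lower, with a median difference of 1.63. Car9, a cell-surface carbonic anhydrase, stood at 5.40 FPKM for the wildtype and 298 for the AID-null culture, against 27.3 and 22.3 in wildtype and AID-null fibroblasts. Adm, which encodes the vasoactive peptide adrenomedullin, stood at 80.6 and 1401 FPKM, against 779 and 864 in fibroblasts. Bnip3, a mitophagy receptor, stood at 146 and 838 FPKM, against 214 and 186. For Car9 and Adm the wildtype culture lay below and the AID-null culture above both fibroblast libraries. Ankrd37 stood at 31.1 and 130 FPKM, the prolyl hydroxylase Egln3 at 43.7 and 163, Ndrg1 at 149 and 510, and Vegfa, the vessel growth factor, at 183 and 428. The collagen prolyl hydroxylases P4ha1 and P4ha2 stood at 166 and 530 and at 90.1 and 272 FPKM. The transcripts of the factors themselves did not share the direction: Hif1a stood at 387 and 255 FPKM and Epas1 at 76.2 and 51.1. Relative to their own fibroblasts, the median member stood at 68.3% for the wildtype and 220% for the AID-null culture.

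The promoters of the 4 members with the largest difference are shown because these genes share a known binding core of the hypoxia-inducible factors. Each sequence is the 250 bases before the transcription start, from RefSeq on GRCm38.p6 (not the build of the data, used here for sequence alone), with every ACGTG or GCGTG on either strand in capitals. Overlapping matches were each counted, so that CACGTG counts once per strand.
Car9 (chr4:43506776-43507025, + strand): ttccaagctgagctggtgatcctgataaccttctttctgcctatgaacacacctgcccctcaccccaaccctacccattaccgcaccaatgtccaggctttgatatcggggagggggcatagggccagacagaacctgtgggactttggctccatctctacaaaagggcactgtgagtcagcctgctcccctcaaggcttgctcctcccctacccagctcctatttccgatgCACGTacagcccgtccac
Adm (chr7:110627407-110627656, + strand): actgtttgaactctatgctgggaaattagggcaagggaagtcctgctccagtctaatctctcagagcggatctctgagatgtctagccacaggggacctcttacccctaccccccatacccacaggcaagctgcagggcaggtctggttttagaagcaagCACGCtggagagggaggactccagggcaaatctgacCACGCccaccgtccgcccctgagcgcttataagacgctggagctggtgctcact
Bnip3 (chr7:138909507-138909756, - strand): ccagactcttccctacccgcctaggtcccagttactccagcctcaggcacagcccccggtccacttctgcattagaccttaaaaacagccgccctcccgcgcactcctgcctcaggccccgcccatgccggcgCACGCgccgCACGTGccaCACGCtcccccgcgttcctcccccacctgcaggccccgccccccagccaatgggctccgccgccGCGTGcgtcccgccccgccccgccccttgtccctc
Ankrd37 (chr8:45999851-46000100, - strand): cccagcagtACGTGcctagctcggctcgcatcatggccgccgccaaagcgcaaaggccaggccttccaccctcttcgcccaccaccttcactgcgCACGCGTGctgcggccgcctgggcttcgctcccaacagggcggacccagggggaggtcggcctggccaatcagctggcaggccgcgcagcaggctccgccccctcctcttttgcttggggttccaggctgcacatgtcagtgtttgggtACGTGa
The windows hold 1, 2, 5 and 4 matches. Of the 14 list members 12 had a promoter in the table, and 11 of these held at least 1 match. The share was 55.0% over the promoters of 11359 compared genes and 38.6% over all 27025 promoters of the table. Vegfa, at least 2-fold higher, held none in its window, and Hif1a, which was not higher, held 3. A match is a run of letters and not a measured binding site. The list was made of known low-oxygen genes, and the promoters were not matched for CpG content. The shares are therefore no result about these cultures.

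Glycolysis genes followed the same direction with smaller differences. Of 21 compared 6 were at least 2-fold higher and 0 lower (9 and 0 after upper-quartile scaling), with a median of 0.78, and 19 of 21 lay above 0. Aldoc, an aldolase isoform, stood at 13.7 FPKM for the wildtype and 162 for the AID-null culture, the lactate exporter Slc16a3 at 203 and 532, the hexokinase Hk1 at 102 and 242 and the lactate dehydrogenase subunit Ldhb at 75.8 and 175. The most abundant members differed less, with Aldoa at 3243 and 5979 FPKM and the pyruvate kinase Pkm2 at 4204 and 4579. Respiratory chain genes had a median of −0.01, with 2 of 26 at least 2-fold higher. Those were the tissue-restricted cytochrome oxidase subunits Cox7a1 (24.5 and 121 FPKM) and Cox6b2 (135 and 461 FPKM), while Atp5b and Atp5a1 stood at 4779 and 4342 and at 2242 and 2358 FPKM.

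**Figure D1:**
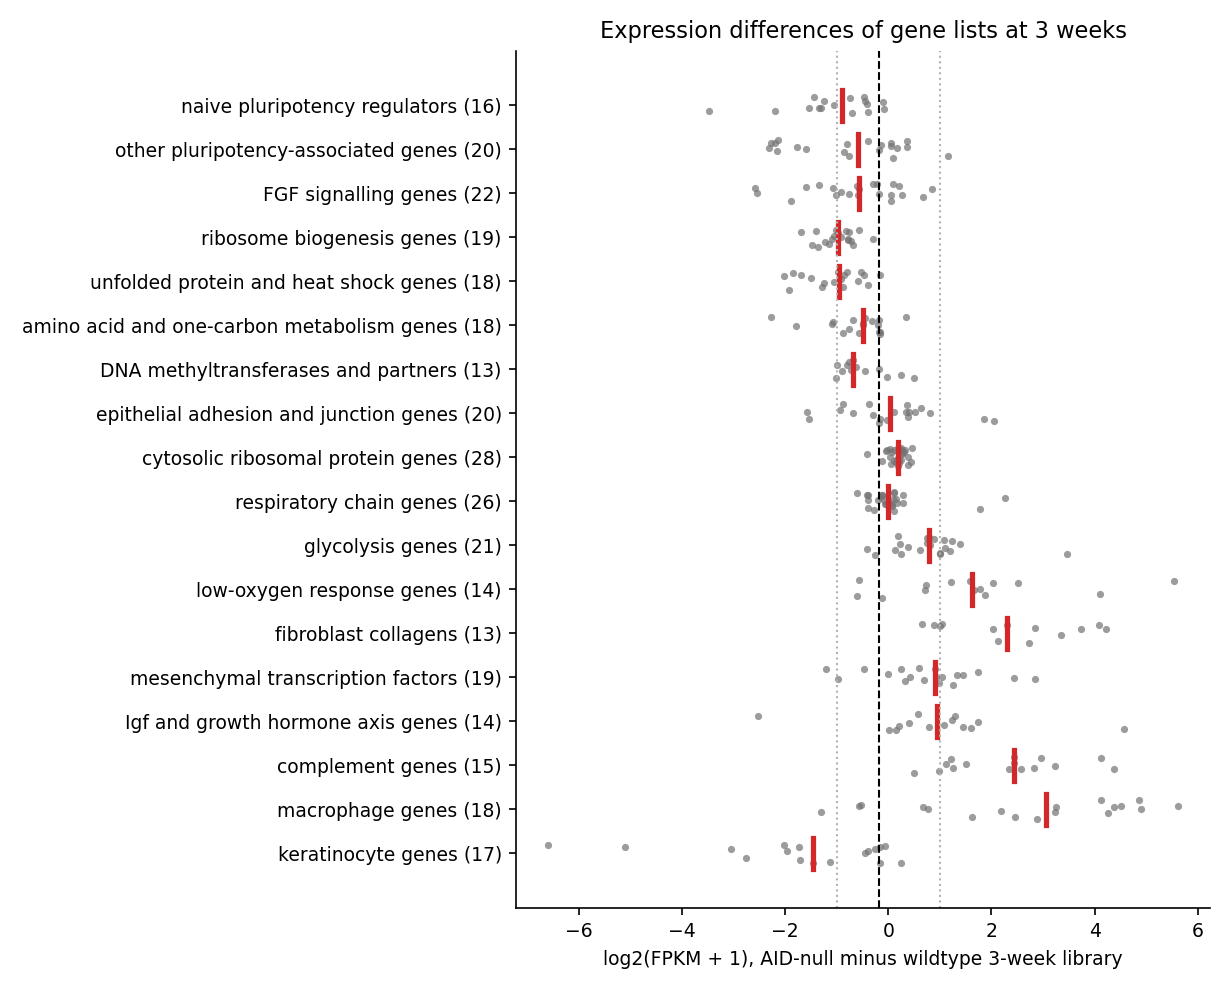
Difference in log2(FPKM + 1), AID-null minus wildtype 3-week library, for the compared genes of 18 lists (numbers of genes in parentheses). Each grey point is a gene, the red bar the list's median, the dashed line the median of all compared genes (−0.17) and the dotted lines 2-fold; macrophage, complement, collagen and low-oxygen genes sit mostly right of the upper dotted line, and no ribosome biogenesis or heat shock gene lies above 0 at the deposited scale (1 heat shock list member does after upper-quartile scaling).

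Most genes of the extracellular matrix were higher in the AID-null culture. Of 13 fibrillar and associated collagens 11 were at least 2-fold higher and 0 lower, with a median of 2.30. The median collagen retained 3.10% of the fibroblast level for the wildtype and 19.3% for the AID-null culture. Col6a1, a subunit of beaded-filament collagen, stood at 51.3 and 968 FPKM, against 2321 and 3263 in fibroblasts. Col3a1 stood at 132 and 1769 FPKM, against 6612 and 9146, and Col1a2 at 187 and 1900 FPKM, against 25482 and 29183. All collagens named here were thus lowest in the wildtype culture. Of 24 other matrix genes 15 were at least 2-fold higher and 0 lower, with a median of 1.31. Lum and Ogn, small proteoglycans, stood at 29.2 and 545 and at 1.42 and 29.3 FPKM, fibulin Fbln1 at 47.7 and 297, fibronectin Fn1 at 1470 and 4848, and Sparc at 2016 and 2912. Thbs2 read lower, at 780 and 577 FPKM, as did Mfap5 with 219 and 132. For the AID-null library, Vcan (227 FPKM, against 159 in AID-null fibroblasts) and Tnc (1535 against 1485) were not below their fibroblast level.

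The enzymes that cut and trim the matrix leaned upward, with exceptions. Of 17 proteases and inhibitors 7 were at least 2-fold higher and 2 lower (9 and 2 after upper-quartile scaling). The median was 0.85, and 14 of 17 lay above 0. Mmp3, the protease stromelysin, stood at 1672 FPKM for the wildtype and 11307 for the AID-null culture, against 366 and 463 in fibroblasts, so that both cultures lay above both fibroblast libraries. Mmp9, a gelatinase, stood at 1.77 and 49.7 FPKM, against 14.9 and 36.3. The cathepsin Ctsk and the urokinase gene Plau were the 2 members at least 2-fold lower, at 629 and 238 and at 421 and 180 FPKM.

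Fibroblast surface and cytoskeleton genes differed by a median of 1.30, and 11 of 20 were at least 2-fold higher and 0 lower. Vim, the intermediate filament of mesenchymal cells, stood at 2260 FPKM for the wildtype and 9263 for the AID-null culture, against 8800 and 8672 in fibroblasts. Cav1, the main protein of caveolae, stood at 195 and 1436 FPKM, against 1425 and 1110. For both genes the AID-null culture read above either fibroblast library and the wildtype culture far below. The smooth muscle gene Tagln was below fibroblasts in both cultures, at 32.2 and 199 FPKM, against 2034 and 2489, and so was Myl9, at 14.7 and 69.7 FPKM, against 765 and 866. Among 19 mesenchymal transcription factors 7 were at least 2-fold higher and 1, Foxf2, lower, with a median of 0.91. Osr1 stood at 3.25 and 29.7 FPKM and Meox1 at 1.79 and 14.2 FPKM, whereas Twist1 differed by 0.32 at 156 and 195 FPKM.

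Most macrophage markers were higher in the AID-null culture. Of 18 markers 13 were at least 2-fold higher and 1 lower, with a median of 3.06. Their summed level was 706 FPKM for the wildtype and 1778 FPKM for the AID-null culture, against 1953 and 3416 in fibroblasts. Of the 18, 7 were listed at 0 in the wildtype culture, among them Tyrobp, Emr1 and the C1q chains, and 0 in the AID-null culture. Lyz2, a lysozyme, stood at 38.4 and 903 FPKM, and the protease gene Ctss at 2.07 and 90.4 FPKM. The members that read lower were Cd53 at 58.3 and 22.9, Cd14 at 219 and 147 and Laptm5 at 265 and 184 FPKM. In the fibroblast libraries the median macrophage difference was already 1.65. Complement genes, which include the C1q chains, had a median of 2.43 with 13 of 15 at least 2-fold higher and 0 lower. Among members made by fibroblasts, the C1 inhibitor Serping1 stood at 66.7 and 364 FPKM and the protease gene Masp1 at 87.1 and 203 FPKM. The part of macrophages in the differences of matrix, complement, protease and low-oxygen genes was not tested.

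Markers of other cell types varied in level and direction from list to list. Lymphocyte and mast cell markers were listed at 0 for 7 of 14 genes in each culture, with summed levels of 69.5 and 49.6 FPKM. Endothelial markers had a median of 0.05 with 1 of 9, Tie1, at least 2-fold lower. Adipocyte markers had a median of 1.10 with 5 of 7 at least 2-fold higher, led by Cfd, listed at 0 and at 6.79 FPKM, and by the fatty acid binding protein gene Fabp4 at 46.8 and 275 FPKM. Cartilage and bone genes had a median of 1.05 with 5 of 10 at least 2-fold higher. Among them Spp1, which encodes osteopontin, stood at 20897 and 52434 FPKM and Sp7, a bone cell factor, was listed at 0 and at 6.19 FPKM. Neural and Schwann cell genes had a median of −0.52 with 4 of 9 lower and 1, Sox10, higher (4 and 2 after upper-quartile scaling). Tubb3 stood at 69.4 and 16.9 FPKM. For muscle genes the median was −0.02, and 3 of 8 differed at least 2-fold, Des and Tnnc2 upward and Ckm downward (2 higher and 0 lower of 7 compared after upper-quartile scaling).

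Naive pluripotency regulators read lower in the AID-null culture. Of 16 naive regulators 8 were at least 2-fold lower and 0 higher (7 and 0 after upper-quartile scaling), with a median of −0.90. Gbx2, a homeobox gene that sustains self-renewal, stood at 35.7 FPKM for the wildtype and 2.28 for the AID-null culture, against 0 and 0.82 in fibroblasts. Klf2 stood at 239 and 51.2 FPKM, Sall4 at 223 and 76.7 and Prdm14, a repressor of differentiation genes, at 23.4 and 8.00 FPKM. The AID-null culture read below the wildtype culture in all 16 at the deposited scale and in 14 after upper-quartile scaling, and Zfp42 and Mybl2, the most abundant, stood at 691 and 423 and at 624 and 448 FPKM. Of 20 other pluripotency-associated genes 7 were at least 2-fold lower and 1, Dppa3, higher, and 7 of 20 lay above 0 (8 after upper-quartile scaling). Lin28b stood at 15.2 and 2.28 FPKM and Tdh at 274 and 55.8. L1td1, an RNA-binding protein gene of embryonic stem cells, stood at 744 and 162 FPKM, Sall1 at 142 and 31.0 and Jam2 was also lower, while the most abundant, Dppa5a and Utf1, differed by 0.05 and 0.36. The delivered factor genes, whose FPKM does not separate delivered from endogenous transcripts, summed to 3317 and 2100 FPKM.

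Genes of neighbouring developmental states did not move as 1 block. Of 17 primed and mesendoderm genes 8 were at least 2-fold lower and 1, Otx2, higher. Cer1, a secreted Nodal inhibitor, stood at 16.7 FPKM and was listed at 0 in the AID-null culture, and Lefty1, of the same pathway, stood at 457 and 133 FPKM. Genes of the 2-cell stage were 3 of 9 lower and 0 higher, at low levels such as Zfp352 at 5.95 and 0.97 FPKM. Only 1 of the 9 reached 1 FPKM in a fibroblast library. The lower share was near the 31.1% of all compared genes listed at 0 in fibroblasts. Primitive endoderm and trophoblast genes had 3 of 17 higher and 1 lower (5 and 1 after upper-quartile scaling). Pdgfra, which is also on the list of fibroblast surface genes, stood at 81.8 and 283 FPKM, and Elf5 at 4.40 FPKM and listed at 0. Germline genes had 6 of 18 higher and 1, Piwil2, lower. Mael stood at 15.1 and 73.7 FPKM, Mov10l1, a piRNA helicase gene, at 3.49 and 15.7 FPKM, and the meiotic cohesin gene Smc1b at 27.6 and 62.3 FPKM, while Sycp3 of the same list stood at 138 and 147.

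Epithelial adhesion and junction genes were called about as often as all compared genes, of which 9.81% were higher and 10.9% lower. Only 6 of them reached 1 FPKM in a fibroblast library. They were called less often than genes listed at 0 in both fibroblast libraries, of which 15.2% were higher and 31.1% lower. Of 20 adhesion and junction genes 2 were at least 2-fold higher and 2 lower, with a median of 0.04 and summed levels of 1690 and 1696 FPKM. Tjp3 and the claudin gene Cldn7 stood at 12.8 and 56.4 and at 33.4 and 123 FPKM, whereas the desmoglein gene Dsg2 and the transcription factor gene Grhl2 stood at 92.7 and 30.2 and at 99.6 and 33.7 FPKM. Cdh1, the adhesion gene of epithelial cells, stood at 296 and 289 FPKM. Keratinocyte genes had 10 of 17 at least 2-fold lower and 0 higher, with a median of −1.46. Krt17 stood at 85.8 and 9.42 FPKM and Perp, a desmosome protein gene, at 275 and 83.1 FPKM. Of 20 keratinocyte markers 2 were listed at 0 for the wildtype and 8 for the AID-null culture.

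**Figure D2:**
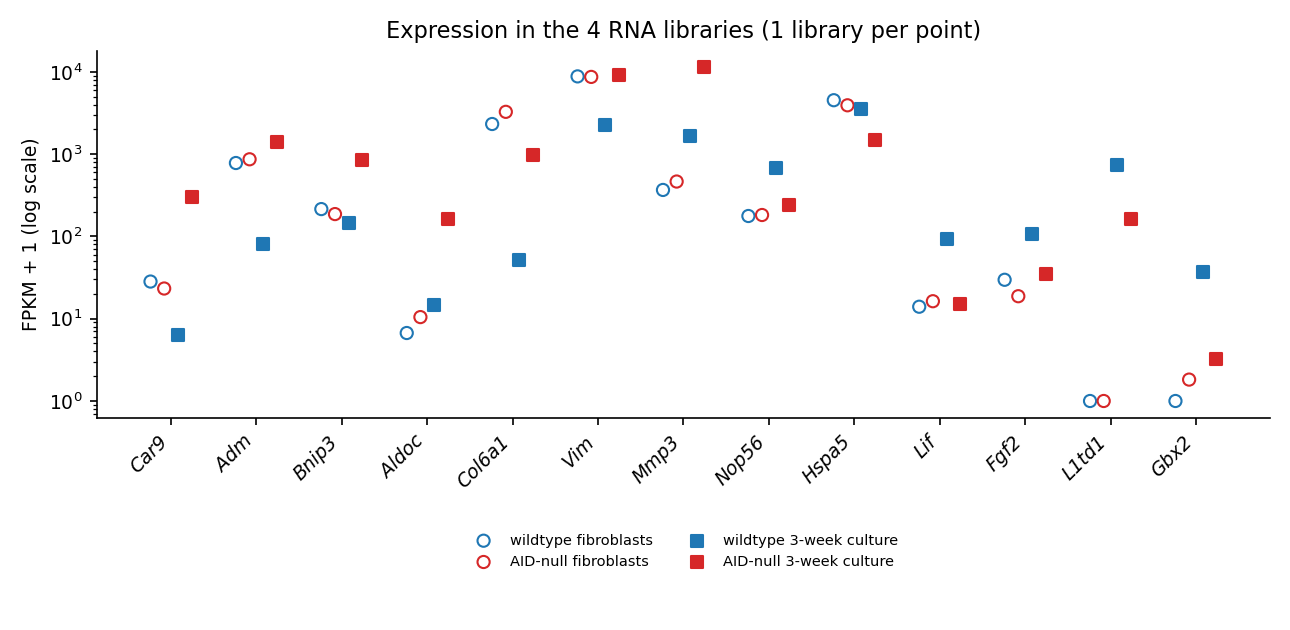
FPKM + 1 on a log axis for 13 genes in the 4 RNA libraries (open circles fibroblasts, filled squares 3-week cultures; blue wildtype, red AID-null). The red square lies above the blue square for Car9, Adm, Bnip3, Aldoc, Col6a1, Vim and Mmp3 and below it for Nop56, Hspa5, Lif, Fgf2, L1td1 and Gbx2, while the 2 circles of these genes lie close together.

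Signalling genes were compared by pathway. FGF signals drive ERK and push pluripotent cells towards differentiation. Of 22 FGF genes 7 were at least 2-fold lower and 0 higher (5 and 0 after upper-quartile scaling), with a median of −0.58. The ligands Fgf2 and Fgf15 stood at 106 and 34.3 and at 30.7 and 4.43 FPKM. The feedback inhibitors Spry4 and Spry2 stood at 145 and 38.7 and at 367 and 181 FPKM. BMP genes had 5 of 20 lower and 1, Bmp7, higher (3 and 2 after upper-quartile scaling). The lower ones included 3 direct targets, Id1 at 271 and 82.2 FPKM, Id2 at 169 and 65.0 and Id3 at 484 and 135, and also Bmp4 and its antagonist Grem1 (1838 and 868 FPKM). The BMP median was −0.08 and turned to 0.09 after upper-quartile scaling.

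TGF-beta and activin genes leaned the other way, with 7 of 22 at least 2-fold higher and 1, the receptor gene Tgfbr1, lower (7 and 0 after upper-quartile scaling). The target Tgfbi stood at 23.1 and 238 FPKM, the inhibin subunit Inhbb at 74.5 and 506 and the latent-ligand binding protein gene Ltbp2 at 64.0 and 310, while the abundant members Ctgf and Inhba differed by 0.23 and 0.05. Insulin-like growth factor genes had a median of 0.94 with 7 of 14 higher and 1 lower. The carrier Igfbp4 stood at 881 and 2953 FPKM and the protease gene Htra3 at 1.15 and 49.8 FPKM, and Igfbp5 at 338 and 58.1 FPKM went against them. In the LIF pathway, which maintains mouse pluripotent cells, the ligand Lif stood at 93.3 and 14.0 FPKM, against 13.0 and 15.3 in fibroblasts, and the related Il6 at 12.0 FPKM and listed at 0. Their shared receptor subunit Il6st stood at 129 and 279 FPKM, 1 of 10 genes higher (2 after upper-quartile scaling). Chemokines and cytokines had 6 of 17 higher and 3 lower (7 and 3 after upper-quartile scaling). Ccl2 stood at 1180 and 379, Ccl8 at 683 and 186 and the neutrophil attractant Cxcl5 at 36.4 and 111 FPKM. Wnt genes had 2 of 25 on each side, among them Dkk3 at 47.1 and 188 FPKM and Wnt8a at 7.66 and 0.95 FPKM. Interferon response genes had 3 of 24 higher, the antigen presentation genes Psmb9, Tap1 and H2-K1, and 0 lower (5 and 0 after upper-quartile scaling), with Psmb9 at 10.6 and 37.1 FPKM. Over all compared genes 9.81% were higher and 10.9% lower.

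Genes for making ribosomes and folding proteins were lower in the AID-null culture. Of 19 ribosome biogenesis genes 9 were at least 2-fold lower and 0 higher (5 and 0 after upper-quartile scaling), all 19 lay below 0 under both scales, and the median was −0.98. Nop2 and Nop56, which modify ribosomal RNA, stood at 387 and 120 and at 671 and 240 FPKM, against 116 and 116 and 176 and 181 in fibroblasts. Polr1a, the large subunit of RNA polymerase I, stood at 160 and 61.0 FPKM. The median member was at 348% of the fibroblast level for the wildtype and 158% for the AID-null culture. The structural ribosomal protein genes were different: 0 of 28 were called in either direction and their median was 0.20, as for Rpl8 at 7855 and 8765 FPKM. Of 18 unfolded protein and heat shock genes 8 were lower and 0 higher (7 and 0 after upper-quartile scaling). All 18 lay below 0 (17 after that scaling), and the median was −0.95. The endoplasmic reticulum chaperone gene Hspa5 stood at 3580 and 1464 FPKM, the stress factor gene Ddit3 at 384 and 118 and the heat shock gene Hspa1b at 109 and 27.9. Of 18 amino acid and one-carbon genes 4 were lower and 0 higher (2 and 0 after upper-quartile scaling), including Mat2a, which makes the methyl donor S-adenosylmethionine, at 693 and 200 FPKM.

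Cell cycle genes differed less. Of 24 members 2 (1 after upper-quartile scaling), the cyclin genes Ccne1 (472 and 145 FPKM) and Ccne2 (26.1 and 11.9 FPKM), were at least 2-fold lower and 0 higher, with a median of −0.42. Pcna stood at 464 and 249 FPKM and Top2a at 524 and 711 FPKM. Trp53, which encodes p53, stood at 606 and 235 FPKM, and Sesn2, a stress target of it, at 329 and 143, the 2 lower genes of 14 on the p53 list. Of 18 genes of transcription and splicing in pluripotent cells 4 were lower (2 after upper-quartile scaling), among them Srsf3 at 539 and 180 FPKM and the chromatin remodeller Arid1a at 186 and 67.3 FPKM.

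Genes that write, read and remove chromatin marks were mostly within 2-fold, as were 79.3% of all compared genes. Methyltransferases and partners had a median of −0.68 with 1 of 13, Dnmt3b, lower and 0 higher (0 and 0 after upper-quartile scaling). Dnmt3l stood at 786 and 692 FPKM, the maintenance factor Uhrf1 at 330 and 189 and the corepressor Trim28 at 1910 and 1161. Tet, deaminase and base excision repair genes had a median of 0.03 with 2 of 24 higher (Gadd45b at 48.6 and 158 FPKM and the glycosylase gene Neil2 at 20.7 and 55.9) and 2 lower (Apex1 and Apobec2), or 2 and 1 after upper-quartile scaling. Polycomb genes had 2 of 19 lower (1 lower and 1 higher after upper-quartile scaling), Pcgf6 at 169 and 71.3 FPKM and Jarid2 at 345 and 166, retroelement silencing genes 0 of 13 in either direction, and histone genes 1 of 10 on each side (1 higher and 0 lower after upper-quartile scaling). Imprinted genes had 6 of 30 higher and 7 lower (6 and 5 after upper-quartile scaling). In the Dlk1 cluster, Dlk1 and Rtl1, both expressed from the paternal copy, went apart, at 4.51 and 46.9 FPKM and at 10.6 and 0.21 FPKM. Airn, a paternal non-coding RNA, stood at 1.87 and 21.2 FPKM. Hox genes had 4 of 33 higher and 0 lower (6 and 0 after upper-quartile scaling), with the posterior gene Hoxb13 at 16.8 and 45.03 FPKM. Over all compared genes 9.81% were higher and 10.9% lower.

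The difference varied with how active a gene was in fibroblasts. Of 1336 compared genes listed at 0 in both fibroblast libraries, 31.1% were at least 2-fold lower and 15.2% higher in the AID-null culture. Of 3845 genes at 100 FPKM or more in fibroblasts, 5.38% were lower and 8.48% higher. The share higher did not change steadily between these ends. Of 2195 genes with a fibroblast mean from 1 to 10 FPKM, 12.6% were lower and 15.7% higher. Between the fibroblast libraries themselves 555 of 13209 genes (4.2%) were at least 2-fold higher and 170 (1.29%) lower under the AID-null label. Genes higher in both states numbered 158, which is 11.1% of the genes higher at 3 weeks and 28.5% of those higher in fibroblasts. Genes lower in both numbered 45, or 2.85% and 26.5%. The median fibroblast difference was 0.02 for the genes higher at 3 weeks and 0.00 for the genes lower.

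Genes that differed had fewer CpG-rich promoters than genes that did not. Promoters were called CpG-rich at an observed-to-expected CpG ratio of at least 0.6 and a GC content of at least 50% in the 300 bases around the start, for 11359 compared genes with an entry. The share was 69.4% of genes within 2-fold, 38.0% of genes higher and 53.3% of genes lower, and 27.5% and 25.9% of genes at least 4-fold higher and lower. Both ends are shown, again as the 250 bases before the start from RefSeq on GRCm38.p6, with each CpG in capitals: Col3a1 and Thbs4 from the higher genes (Thbs4 stood at 25.03 and 3395 FPKM), Gbx2 from the lower pluripotency genes, and the germ cell gene Dazl (14.4 and 64.1 FPKM in the cultures).
Col3a1 (chr1:45311288-45311537, + strand): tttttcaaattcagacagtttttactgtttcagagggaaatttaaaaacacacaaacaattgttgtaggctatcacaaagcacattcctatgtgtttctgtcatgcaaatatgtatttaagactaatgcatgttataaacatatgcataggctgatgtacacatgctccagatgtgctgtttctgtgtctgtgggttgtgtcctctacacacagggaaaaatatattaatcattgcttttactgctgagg
Thbs4 (chr13:92794819-92795068, - strand): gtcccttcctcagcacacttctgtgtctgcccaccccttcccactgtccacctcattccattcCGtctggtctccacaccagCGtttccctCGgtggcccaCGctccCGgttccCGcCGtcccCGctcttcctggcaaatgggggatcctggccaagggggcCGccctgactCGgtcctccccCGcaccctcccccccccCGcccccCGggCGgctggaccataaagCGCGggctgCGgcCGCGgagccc
Gbx2 (chr1:89931177-89931426, - strand): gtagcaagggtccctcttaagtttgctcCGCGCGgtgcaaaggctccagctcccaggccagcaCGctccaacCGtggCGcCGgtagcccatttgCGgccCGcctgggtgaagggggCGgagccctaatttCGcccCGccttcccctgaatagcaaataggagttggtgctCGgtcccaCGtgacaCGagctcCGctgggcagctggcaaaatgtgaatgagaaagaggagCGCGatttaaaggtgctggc
Dazl (chr17:50293621-50293870, - strand): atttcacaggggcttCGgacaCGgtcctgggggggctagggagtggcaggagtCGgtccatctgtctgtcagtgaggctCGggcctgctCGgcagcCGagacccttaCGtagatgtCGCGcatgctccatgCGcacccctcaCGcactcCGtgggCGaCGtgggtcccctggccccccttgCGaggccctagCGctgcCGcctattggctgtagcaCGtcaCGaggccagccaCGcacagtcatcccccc
These windows hold 0, 19, 18 and 20 CpGs, so single genes do not follow the shares. Promoter methylation of these genes was not analysed here, since the methylation data are on build mm9.

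Methylation was compared over 1585141 autosomal cytosines covered by at least 10 reads in both 3-week libraries. Reads were summed over 117165 tiles of 1000 bases with at least 3 such cytosines. The AID-null culture was more methylated at most tiles. Mean tile methylation was 41.5% for the wildtype and 48.5% for the AID-null culture, a difference of 7.07 points. Tiles at least 25 points higher numbered 3024 (2.58%) and tiles at least 25 points lower 174 (0.149%). Most of the difference was a moderate shift of many tiles: 5% lay below −5.26 and 5% above 21.95 points, and 84.7% of the 92640 tiles with at least 10% methylation in either library were higher in the AID-null culture. The higher tiles averaged 45.8% for the wildtype and 76.0% for the AID-null culture, at a median of 278 and 307 reads. The lower tiles averaged 68.1% and 30.2% and rested on fewer reads, a median of 84 and 60.

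The size of the difference varied with the weighting by reads. Pooled over all reads at shared cytosines, 21.7% were methylated for the wildtype and 23.1% for the AID-null culture, a difference of 1.41 points, while the mean over cytosines was 21.7% and 25.4%. CpG-dense tiles, which take many reads, were the least different. Tiles with 3 to 5 covered cytosines differed by 9.04 points on average, tiles with 6 to 10 by 7.59, with 11 to 20 by 4.70, with 21 to 40 by 0.924 and with more than 40 by 0.0618 points. Of the 8882 tiles with more than 40 cytosines, which averaged 1.33% and 1.39%, 0 were called higher. At single cytosines the shares under 10% methylation were alike, 59.5% and 59.3%. Cytosines from 40% to 60% made up 13.6% for the wildtype and 8.604% for the AID-null culture, those from 80% to 90% 2.13% and 6.795%, and those at 90% or more 0.741% and 3.05%.

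The difference grew with the methylation of the tile in fibroblasts, a measure that the 3-week comparison did not use. It was taken over 108306 tiles covered in all 10 RRBS libraries. Tiles under 10% in fibroblasts averaged 3.78% for the wildtype and 3.51% for the AID-null culture. Tiles from 30% to 50% averaged 38.2% and 42.2%, and tiles from 50% to 70% averaged 47.1% and 54.5%. Tiles from 70% to 90% averaged 56.8% and 67.9%, and tiles at 90% or more 63.4% and 75.9%, with 94.6% of them higher in the AID-null culture. In the same classes the fibroblast libraries differed by −1.53 to 0.24 points. Both cultures were below their fibroblasts at highly methylated tiles, the wildtype culture further. Within tiles at 70% or more in fibroblasts the number of cytosines made less difference, from 12.0 points at 3 to 5 cytosines to 9.03 points at 21 or more.

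**Figure D3:**
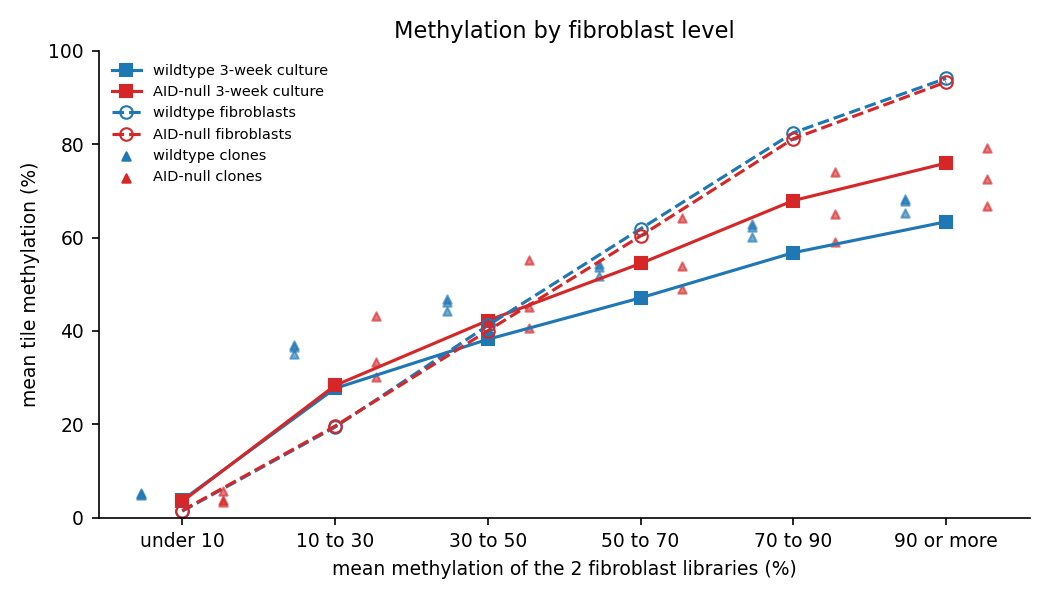
Mean tile methylation (percent) in 6 classes of fibroblast methylation, for the 3-week cultures (squares), fibroblasts (open circles) and the 3 clones per genotype (triangles, set to the sides), blue wildtype and red AID-null. The red and blue squares coincide at low levels and stand 11.2 and 12.6 points apart in the top 2 classes.

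Retention of fibroblast methylation was also read as a share of tiles. Of 54329 tiles at 70% or more in fibroblasts, 18.4% were still at 70% or more in the wildtype culture and 60.4% in the AID-null culture. The median of these tiles was 60.7% (quartiles 52.5% and 67.7%) and 73.2% (quartiles 64.2% and 80.1%). Tiles that had gone under 30% made up 2.78% (1510 tiles) and 0.552% (300 tiles). Each culture formed a single broad hump, the AID-null one at higher levels.

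**Figure D4:**
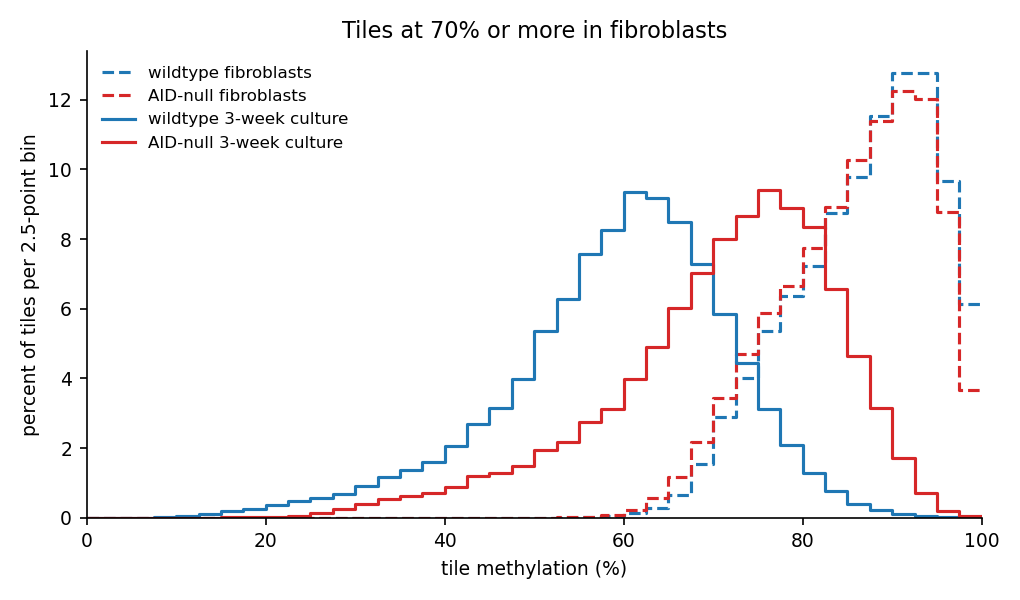
Distribution of tile methylation (percent, bins of 2.5 points) over 54329 tiles at 70% or more in fibroblasts, as a percent of tiles per bin, for wildtype (blue) and AID-null (red) fibroblasts (dashed) and 3-week cultures (solid). The fibroblast curves overlap near the upper end, and the 3-week curves have medians of 60.7% and 73.2%.

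The difference was spread over the genome. All 19 autosomes had a mean difference above 0, from 6.48 points on chromosome 13 to 7.56 on chromosome 15. All 1614 windows of 1 Mb with at least 20 tiles lay above 0, with 90% of them between 4.26 and 9.82 points. Tiles called higher were found in 1456 of 2411 windows. Among 714 of them with a covered neighbour tile, 4.48% had a neighbour that was also called higher, against 1.72% of 46009 tiles with a neighbour. These shares were not matched for methylation level. Tiles under 10% in fibroblasts were called higher at 0.0154%, tiles from 70% to 90% at 3.345% and tiles at 90% or more at 5.11%. Clustering of called tiles was not tested. The largest window difference was at chr8:5000001-6000000 (mm9), where 24 tiles averaged 63.1% for the wildtype and 77.8% for the AID-null culture. The smallest was at chr6:116000001-117000000, where 36 tiles averaged 36.6% and 37.5%. Over these tiles in the 10-library set the fibroblasts stood at 88.0% and 88.3% in the former window and at 44.0% and 42.2% in the latter. What genes lie in these mm9 intervals was not analysed here.

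Single tiles are given for scale, with 95% Wilson intervals that cover counting error only. The largest positive difference among well-covered tiles was at chr10:88508001-88509000, which read 15.1% (10.8 to 20.6, 206 reads) in the wildtype and 65.6% (61.1 to 69.8, 456 reads) in the AID-null culture. It read 85.8% and 89.96% in fibroblasts, and the 3 wildtype clones stood at 25.2%, 42.7% and 25.4% against 34.6%, 32.6% and 40.1% in AID-null clones, which overlap. At chr13:49970001-49971000 the cultures read 43.1% and 86.7%, and all 6 clones read from 69.4% to 90.6%. The largest negative difference with values in all libraries was at chr7:150514001-150515000, at 72.7% (63.7 to 80.2, 110 reads) and 35.3% (30.7 to 40.1, 400 reads). That tile was low in fibroblasts, 11.5% and 21.96%, and read from 62.7% to 84.1% in the 6 clones.

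The clones and fibroblasts, which share no library with the 3-week cultures, were used to ask whether the higher tiles differed elsewhere. Of the 3024 tiles, 2449 were covered in all 10 libraries. In the fibroblast libraries these tiles averaged 84.7% and 84.0%, and 16 of them were at least 25 points higher there (0.653%, against 0.367% of all tiles) and 25 at least 25 points lower (1.02%, against 0.596%). In clones they averaged 60.4% ± 1.38 (SD, n = 3) in the wildtype, with clones at 58.9%, 61.1% and 61.4%, and 65.3% ± 7.62 (SD, n = 3) in the AID-null group, with clones at 64.2%, 58.3% and 73.4%. The groups overlapped, since AID-null clone 2 was the lowest of all 6 and AID-null clone 3 the highest. The difference was 4.85 points (exact two-sided permutation p = 0.5, n = 3 per group). No p under 0.1 is possible with 3 clones per group, so this test could not pass a threshold of 0.05 whatever the values. Without AID-null clone 3 it was 0.789 points. Over all tiles the clone difference was 2.57 points (exact permutation p = 0.7). All tiles are not matched for methylation, averaging 55.65% and 54.89% in the fibroblast libraries. Tiles from 70% to 90% in fibroblasts averaged 60.1%, 62.3% and 62.9% in wildtype clones and 65.1%, 59.15% and 74.0% in AID-null clones, much like the higher tiles. All 3 AID-null clones lay above all 3 wildtype clones in 18.9% of the higher tiles and in 15.0% of all tiles, and below them in 2.57% and 6.12%. Whether the clones derive from separate animals is not given in the labels, so these p-values measure only the spread between these clones.

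**Figure D5:**
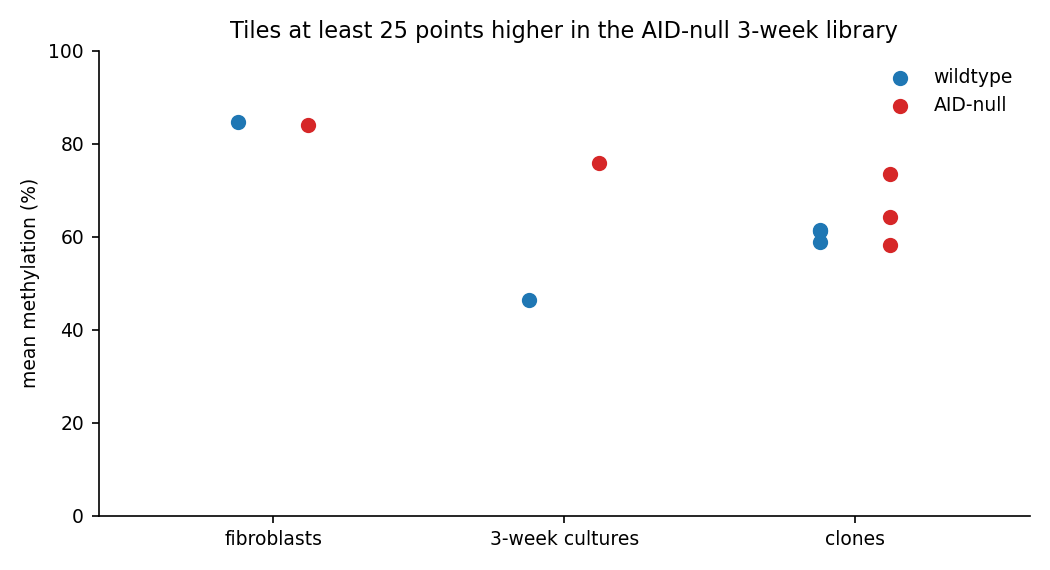
Mean methylation (percent) of the 2449 tiles at least 25 points higher in the AID-null 3-week library, 1 point per library, in fibroblasts, 3-week cultures and clones (blue wildtype, red AID-null). The 3-week values differ because the tiles were chosen on them; the fibroblast values lie within 1 point and the clones overlap.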

How the data were processed

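RNA was measured in 4 and RRBS in 10 libraries, grouped by sample titles. The authors' deposited RNA files give FPKM per gene. The deposited RRBS files list each cytosine's coverage as a read count and the percent of reads methylated and converted, per the file headers. Every position listed had a coverage of at least 10. TopHat, Cufflinks, Bismark, methylKit and mm9 are named, without versions, per the submitters' processing notes. Upstream filters and annotation: not given in the sources used here.

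Differences in RNA were taken as log2(FPKM + 1), which understates the change of low genes, among autosomal genes with at least 1 FPKM in either 3-week library, and called at 1. Chromosomes came from RefSeq names (GRCm38.p6). Of 22026 genes 238 had none and were left out. Methylated reads were coverage times percent. Cytosines beyond the 99.9th coverage percentile were dropped, and tiles were called at 25 points. Counting error of the mean tile difference was 0.0169 points, and of the pooled difference 0.00727 points. RRBS reads carry no molecular identifiers here. The code that makes the calls was tested on simulated data, which checks the code and not the differences between these cultures.

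Of 884 genes in 50 lists 879 were found, 26 of them not autosomal. The targeted gene and 1 list member are not reported here. Members and lists were chosen with earlier results of these data known. Named were the delivered factors, the 10 genes with the largest and the 10 with the smallest difference, genes drawn from the 4 with the largest absolute difference and the 2 with the highest level in each list (not all of them printed), and the 5 highest and 5 lowest tiles with at least 5 positions and 100 reads. The promoters shown, Ddx3y and further members named to account for a count or to show a known role were added after values were seen. Clones were compared by exact permutation. Alternatives changed the pseudocount, filter, scaling, coverage minimum, tile size and weighting. Python 3.11.15, pandas 2.3.3, numpy 2.4.6 and scipy 1.17.1 were used.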

Additional observations from a re-analysis of the deposited data

Results flagged for a closer look

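Mean tile methylation differed in opposite directions between the states. Over the tiles of all 10 libraries the AID-null minus wildtype difference was −0.762 points in fibroblasts and 7.02 points at 3 weeks, with 1 library per side in each. The difference between the states was not tested.

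Lists of at least 5 genes whose median was at least 0.3 in size in both states and opposite in sign were cell cycle genes, at 0.63 in fibroblasts and −0.42 at 3 weeks, and neural and Schwann cell genes, at 0.68 and −0.52 (log2 scale). These medians are at the deposited scale. After upper-quartile scaling the 3-week cell cycle median was −0.24, under the limit of 0.3 in size, and the neural and Schwann cell median was −0.35. These differences were not tested either. Single members need not reverse. Ccne1 was nearly level in wildtype and AID-null fibroblasts, at 37.4 and 38.2 FPKM, and stood at 472 and 145 FPKM in the cultures.

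A signal was also seen outside the autosomes. The AID-null 3-week RRBS library covered 527 positions on Y, and the wildtype library 27.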

How the results depend on the processing

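The direction of the mean tile difference held under every alternative run. It was 6.83 points at a coverage minimum of 30 (1741 tiles higher, 28 lower), 6.47 with 500-base and 7.41 with 2000-base tiles, 5.58 with at least 5 positions per tile (832 higher, 40 lower), 7.15 with tile values as means of positions and 7.03 with X and Y kept. Over positions of all 10 libraries, an alternative chosen after seeing the data, it was 7.02, with 2449 tiles higher and 60 lower. At 40 points 184 tiles were higher and 46 lower, and with the median difference subtracted 772 and 456. The pooled read difference was 1.59 at a minimum coverage of 30, 3.71 as a mean of positions, 2.11 with no upper coverage limit, 1.31 with X and Y kept and 1.70 over positions of all 10 libraries. For RNA, a pseudocount of 5 gave 789 genes higher and 858 lower, and a 4-fold threshold 380 and 227. Of 49 list medians 38 kept their sign under all alternatives and 11 did not. Those were p53, imprinted, Hox, LIF, Wnt, BMP, chemokine, respiratory chain, cholesterol, muscle, and lymphocyte and mast cell genes, each with a median of at most 0.48 in size. The cause of these shifts was not tested.

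Leaving out each clone gave a clone difference of 0.789 to 8.35 points for the higher tiles. Clone numbers did not pair the samples, with correlations of deviations of 0.011, −0.0048 and 0.027. With the clone number as a block the difference was 4.85 points (exact sign-flip permutation p = 0.5, smallest possible 0.25). No spread between 3-week cultures can be given from 1 library per side, the RNA depth is unknown, and tiles called lower rest on few reads.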
